A study of Homo sapiens with 4 samples.

Results

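Peaks of m6A methylated RNA immunoprecipitation sequencing (meRIP-seq) that lay outside annotated exons and were seen in replicate 2 alone were mapped along the chromosomes of OE-19 cells. A peak belonged to this set when it lay on an autosome, its summit fell in no exon of the GENCODE annotation of hg38, and no peak of replicate 1 overlapped it. The set held 4157 of the 19318 peaks of replicate 2 and of 43925 peaks in both lists. The set and its density along the genome were chosen on measured positions, so counts of these peaks are given as a description with no test. All of them come from 1 library, there is no replicate error, and the intervals given are 95% intervals that cover counting error only.

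OE-19 is an established cell line from an adenocarcinoma of the esophagogastric junction (AEG). The series has 2 samples of m6A immunoprecipitation (IP) and 2 of input RNA, as replicates 1 and 2, with 1 peak list for each IP sample. The labels describe cells fixed with UV light and state no other treatment and no genetic change. They do not say whether the replicates are separate cultures. Of 6 epithelial marker genes, CDH1 alone had an exonic peak in replicate 2 and EPCAM, KRT8, KRT18, KRT19 and VIL1 had none, while 0 of 6 markers of fibroblasts, endothelium and blood cells had one. A gene needs both transcription and m6A to give a peak, so this check of the cell line is weak.

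m6A is a methyl mark on adenosines of RNA that is laid down mostly in exons, near stop codons and within the motif GGAC. A peak caller compares the IP reads piled up at a site with a background rate taken from a control library, so a site of few reads can pass where the control is almost empty. Cancer genomes gain and lose copies of chromosome stretches, and read counts from DNA follow those copies. Copy number was not measured in these files, and its part in the density described here was not tested.

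To show what these peaks look like, the 101 bases around the summit are printed for the peak of highest fold enrichment in the dense regions of rank 1, 3, 4, 6, 7 and 8 by number of peaks (those of rank 2 and 5 are not shown), and for the peak with most reads in a cluster on chromosome 17 that was singled out after its values were seen. All are hg38, plus strand. Capitals mark the longest run made only of purines (A and G) or only of pyrimidines (C and T), and the first one where runs of equal length occur.

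chr6:43711315-43711415, intergenic: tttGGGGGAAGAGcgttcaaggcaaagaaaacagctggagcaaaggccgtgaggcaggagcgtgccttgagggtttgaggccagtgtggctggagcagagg
chr18:9322808-9322908, in an intron of a gene that is not protein-coding: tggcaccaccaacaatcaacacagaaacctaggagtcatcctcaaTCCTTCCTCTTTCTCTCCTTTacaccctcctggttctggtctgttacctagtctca
chr20:15079948-15080048, intron of MACROD2: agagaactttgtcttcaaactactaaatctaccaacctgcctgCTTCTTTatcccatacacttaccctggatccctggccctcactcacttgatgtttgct
chr1:196336263-196336363, intron of KCNT2: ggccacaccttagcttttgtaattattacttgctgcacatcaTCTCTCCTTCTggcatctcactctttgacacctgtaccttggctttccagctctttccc
chr11:80432001-80432101, intergenic: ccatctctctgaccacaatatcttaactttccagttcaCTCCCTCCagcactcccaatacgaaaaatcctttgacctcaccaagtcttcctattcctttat
chr21:7258468-7258568, intergenic: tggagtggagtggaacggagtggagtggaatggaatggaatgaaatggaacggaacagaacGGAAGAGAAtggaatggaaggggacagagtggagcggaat
chr17:41650214-41650314, intergenic, cluster on chromosome 17: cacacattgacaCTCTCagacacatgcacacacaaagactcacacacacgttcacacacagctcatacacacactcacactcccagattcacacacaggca

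Several of the printed windows from dense regions were poor in one base class on the strand shown. Purines made up 68.3% of the window on chromosome 6 and 81.2% on chromosome 21, against 34.7% in the windows on chromosomes 18 and 20, 28.7% on chromosome 1 and 31.7% on chromosome 11. The window from the cluster on chromosome 17 was nearly balanced, at 46.5%. Only the window on chromosome 21 held GGAC or its reverse complement, in a stretch of short tandem copies of a few bases.

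A share of the set had this asymmetry to a marked degree. Of the 4157 windows, 1104 (26.6%, Wilson interval 25.2% to 27.9%) had at least 70% or at most 30% purines on the plus strand, with 532 purine-rich and 572 pyrimidine-rich. At positions 1000 bp to the left and to the right of the same summits the share was 5.44% and 5.68%. The difference was 21.1 percentage points on the left (exact McNemar test, adjusted p = 2.88e-174) and 20.9 points on the right (adjusted p = 2.86e-176). All p-values of this feature are two-sided and were adjusted by the Benjamini-Hochberg method over 9 comparisons, which were added after the printed sequences were seen. The printed windows belong to the set. These p-values take the peaks of 1 library as independent, although 311 members had another member within 1000 bp.

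Non-exonic peaks of replicate 2 that were shared with replicate 1 had the asymmetry in 7.05% of 1873 windows, 19.5 points lower (Fisher's exact test, adjusted p = 2.06e-77, with the peaks of 1 library as units). Among peaks of 10 reads or fewer the gap was narrower, with 19.7% of 132 shared windows (interval 13.8% to 27.3%) against 26.7% of 2523 windows of the set (25% to 28.5%), and these intervals overlap. Exonic peaks of replicate 2 had it in 1.87% of 12775 windows. Non-exonic peaks seen in replicate 1 alone had it in 11.6% of 2576 windows. Each replicate is 1 library, so values of the replicates are set side by side. Tests between them count among the 9 comparisons of the adjustment but are not reported here. The replicate 1-only peaks split by the reads behind their summits. Those with 10 reads or fewer had the asymmetry in 23.1% of 961 windows and those with over 10 reads in 4.71% of 1615 (Fisher's exact test, adjusted p = 1.31e-43). Within the replicate 2-only set the share was 26.7% for 10 reads or fewer and 26.3% for more (difference 0.398 points, interval −2.37 to 3.12, Fisher's exact test, adjusted p = 0.801).

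**Figure D1:**
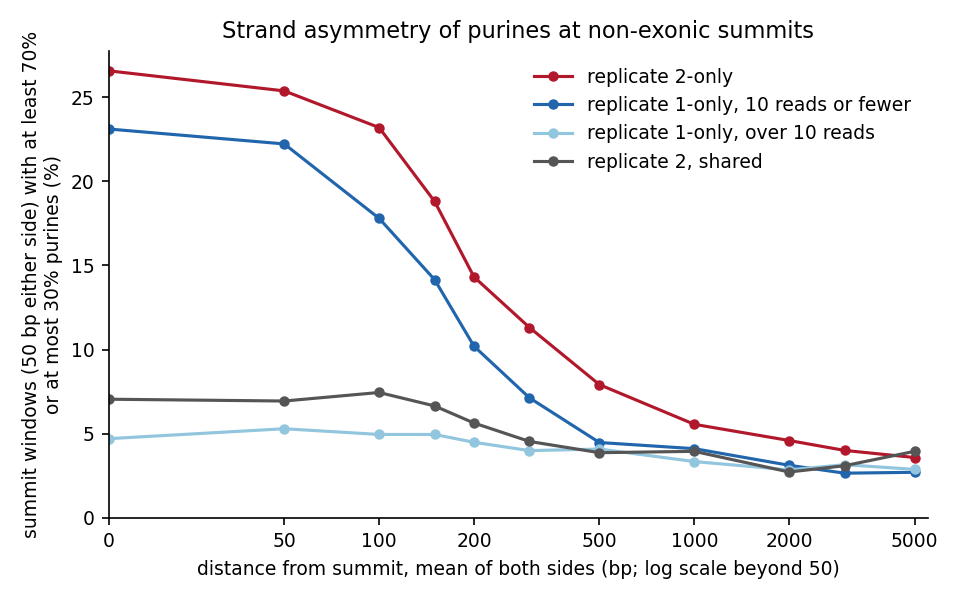
Percent of 101-base windows with at least 70% or at most 30% purines (y axis) by distance from the summit in bp, as the mean of both sides (x axis, log scale beyond 50 bp), for 4 classes of non-exonic peaks. The replicate 2-only peaks fall from 26.6% at the summit to 3.58% at 5000 bp, and the replicate 1-only peaks of 10 reads or fewer from 23.1% to 2.71%, while the other classes stay at 7.45% or lower throughout.

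By base, the asymmetry lay in G and C more than in A. On the purine-rich strand of each window, G made up 32% of the bases at the summit and 24.4% at 1000 bp, and C fell from 17.2% at that distance to 12.3% at the summit. A stood at 33.6% at the summit and 34% to the left and 33.9% to the right. Both strands of host genes were represented. Among 2263 intronic summits where all overlapping genes lay on 1 strand, 280 windows were purine-rich and 295 pyrimidine-rich on the gene's strand. Intronic peaks had it somewhat less often than intergenic ones, at 24.9% against 28.9% (difference −4.01 points, interval −6.76 to −1.27, Fisher's exact test, adjusted p = 0.00646). At 1000 bp to the left and right the shares were 4.42% and 4.38% for intronic peaks. For intergenic ones they were 6.89% and 7.54%, so part of the difference was present away from the summits.

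The number of reads behind each summit was recovered from the fold enrichment and the p-value, which together fix a whole number of IP reads and a background rate for 99.8% of replicate 2 peaks. The replicate 2-only non-exonic peaks rested on few reads, with a minimum of 6, quartiles of 8 and 12, a median of 10 and a maximum of 90. The median was 22 for the shared non-exonic peaks and 13 for the replicate 1-only peaks. In total, 60.7% of the set had 10 reads or fewer, against 7.05% of the shared non-exonic peaks. Fold enrichment did not separate these classes in the same way. Its median was 5.16 in the set (highest 22.4) and 5.23 in the shared peaks.

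**Figure D2:**
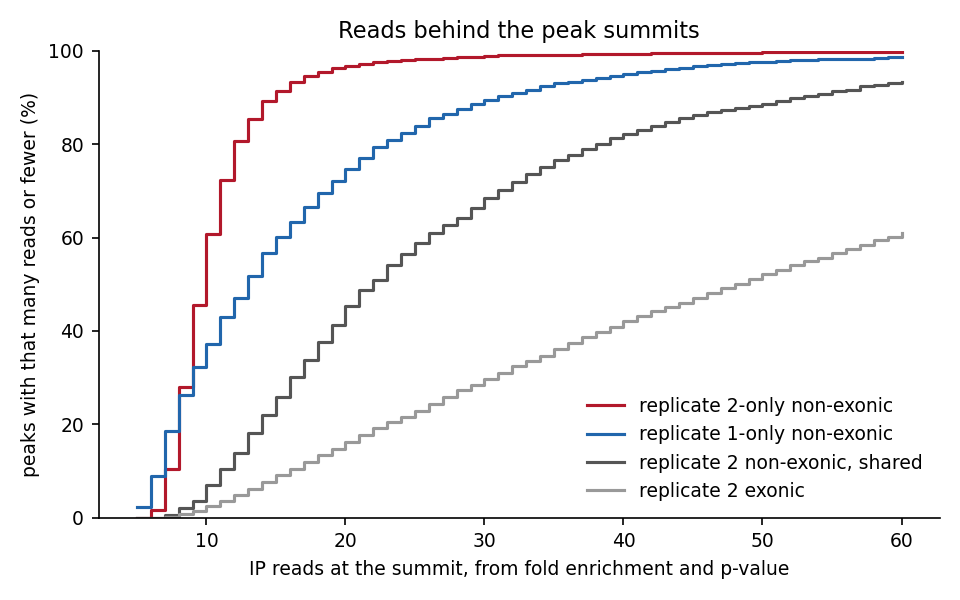
Cumulative percent of peaks (y axis) by the number of IP reads at the summit (x axis) for 4 classes of peaks. At 10 reads the curve of the replicate 2-only non-exonic peaks has reached 60.7%, that of the replicate 1-only peaks 37.3% and that of the shared non-exonic peaks 7.05%.

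The control was close to empty at many of these sites. The background was the caller's genome-wide rate, the lowest it can use, at 1644 of the 4157 summits (39.5%, interval 38.1% to 41%), and a further 1084 (26.1%) had a rate of 1 control read. In the shared non-exonic peaks 5.07% were at the genome-wide rate. A rate above 2 was found at 425 of the replicate 2-only peaks (10.2%). The peaks lay away from exons, at a median of 7132 bp from the nearest one, and 41.8% were within 5000 bp of an exon against 79.1% of the shared non-exonic peaks. Nearest neighbours within the set were a median of 91337 bp apart, and 18.6% had another member within 10000 bp.

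Density varied between chromosomes. Over 2756 Mb of autosomal sequence (bases other than N) there were 1.51 peaks per Mb. Chromosome 8 had the highest density, with 530 peaks and 3.66 per Mb (exact Poisson interval 3.36 to 3.99), followed by chromosome 13 with 330 peaks and 3.37 per Mb (3.01 to 3.75). These intervals overlap, and neither overlaps those of chromosomes 11 (2.27), 20 (2.25), 9 (2.19) and 21 (2.07), which overlap each other. Chromosome 5 had the lowest density, with 63 peaks and 0.348 per Mb (0.267 to 0.445), followed by chromosomes 14 (0.530), 10 (0.548) and 16 (0.562), whose intervals all overlap each other and that of chromosome 5.

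The replicate 1-only non-exonic peaks had another order of chromosomes. Their highest density was on chromosome 19, at 2.86 per Mb (2.44 to 3.33), where the replicate 2-only peaks stood at 1.68. Chromosome 13 had 0.776 per Mb (0.611 to 0.971) in replicate 1, below its mean of 0.935 over all autosomes. Chromosome 5 was the lowest in both, with 0.436 per Mb (0.345 to 0.543) in replicate 1.

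**Figure D3:**
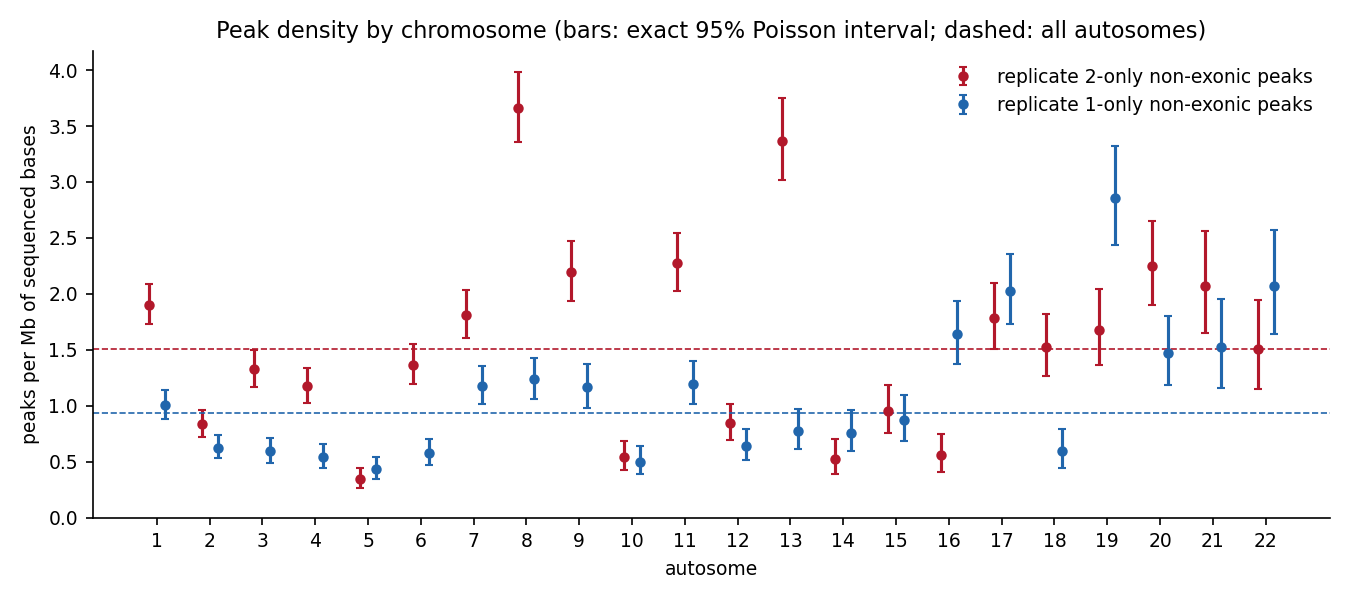
Peaks per Mb of sequenced bases (y axis) for each autosome (x axis), for non-exonic peaks seen in replicate 2 alone (red) and in replicate 1 alone (blue), with exact 95% Poisson intervals and the density over all autosomes as dashed lines. Chromosomes 8 and 13 stand at 3.66 and 3.37 in replicate 2, and chromosomes 16, 17, 19 and 22 are the ones highest in replicate 1.

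In windows of 1 Mb with at least 50% sequenced bases, the set was uneven. The 2765 windows held a mean of 1.5 peaks and a maximum of 19, and 1220 windows (44.1%) held 0. The variance was 3.51 times the mean, where counts scattered evenly would have a ratio near 1. A window was called dense at 5 times the mean or more, which means 8 peaks, and 86 windows (3.11% of all) were called. Just inside that limit 20 windows had 8 peaks, and just outside 27 windows had 7. The same rule applied to the replicate 1-only peaks called 111 windows (4.01%), and 7 windows were called in both, which is 8.14% of the former and 6.31% of the latter.

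The correlation between windows fell slowly with distance. As a description over windows of 1 library, which share depth, the counts of windows that are neighbours had a Pearson correlation of 0.520 (2739 pairs), and windows 10 and 20 Mb apart still had 0.274 and 0.244. For the replicate 1-only peaks these values were 0.432, 0.0883 and 0.0288, and for the exonic peaks of replicate 2 they were 0.585, 0.178 and 0.0756. Dense windows were close to other windows in gene content. Their exon share was 5.38% and their GC content 40.6%, against 5.44% and 41% elsewhere. They held 4.95 exonic peaks of replicate 2 on average (interval 4.49 to 5.45), against 4.59 (4.51 to 4.68). Other classes of non-exonic peaks were denser there. Shared ones of replicate 2 stood at 1.73 per window (1.47 to 2.03), against 0.641 (0.611 to 0.672). Replicate 1-only ones stood at 1.76 (1.49 to 2.06), against 0.903 (0.867 to 0.940).

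Adjacent dense windows were joined into 60 regions, of which 45 were single windows. They held 911 peaks, or 21.9% of the set, in 3.07% of the sequence. Chromosome 8 had 20 of the 86 dense windows, chromosome 1 had 16, chromosome 13 had 10 and chromosome 6 had 9, while chromosomes 2, 5, 9, 10, 14, 15, 16 and 22 had 0. Peaks in dense windows are set beside peaks elsewhere as a description, since the windows were chosen on these peaks. They lay farther from exons, at a median of 8521 bp against 6779 bp. GGAC within 50 bp of the summit was found in 30.2% against 32.2%, and 58.4% against 58.9% were intronic. Purine asymmetry stood at 24.5% against 27.1%.

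Control rates are given in the same way. At the genome-wide rate were 25.2% of the peaks in dense windows (interval 22.5% to 28.2%) and 43.6% of those elsewhere (41.9% to 45.3%), a difference of −18.3 points. This comparison was added after the rates were seen. The difference was −25.8 points among intergenic peaks and −13.1 points among intronic ones. In the same dense windows 30.5% of 151 replicate 1-only peaks were at the genome-wide rate of their own control, against 32.6% of 2425 elsewhere. No test is given, because the control rate also enters the calling of each peak, and the peaks of 1 window are not independent of each other.

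The largest dense region was chr6:40000001-47000000, with 99 peaks in 7 adjacent windows of 11 to 19 peaks each. Its density was 14.1 per Mb (11.5 to 17.2), whereas the rest of chromosome 6 had 0.816 per Mb (0.683 to 0.967). SUPT3H, a subunit of a transcription coactivator complex, held 16 of them in introns, ADGRF5, an adhesion receptor, 4 and RCAN2, a calcineurin regulator, 3. Of these 99 peaks 46 were intergenic, and 5 (5.05%) were at the genome-wide control rate. The region also had 3 replicate 1-only peaks per Mb (1.86 to 4.59), above the 0.935 of all autosomes, and 12.3 exonic peaks of replicate 2 per Mb, where all autosomes had 4.63.

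Other long dense regions lay at chr18:9000001-13000000 (42 peaks, 10.5 per Mb), chr20:15000001-18000000 (34 peaks, 11.3 per Mb) and chr1:196000001-199000000 (27 peaks, 9 per Mb). On chromosome 18, 25 of the peaks were intronic and 17 intergenic. SPIRE1, an actin nucleator, held 8, PIEZO2, a mechanically gated ion channel, 5 and GNAL, a G protein subunit, 2. On chromosome 20 MACROD2, an ADP-ribose hydrolase, held 14, PCSK2, a prohormone convertase, 2 and BANF2 1. On chromosome 1 KCNT2, a potassium channel, held 7, and DENND1B and PTPRC held 2 each. A further region at chr1:185000001-187000000 had 22 peaks, with 9 in HMCN1, an extracellular matrix protein, and 2 in PLA2G4A, a phospholipase. The region chr1:168000001-170000000 had 19, with 5 in NME7, 4 in ATP1B1, a subunit of the sodium pump, and 2 in C1orf112.

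Chromosomes 7, 11 and 6 each had another of the 15 regions with most peaks. At chr11:80000001-83000000 there were 25 peaks, with 2 in PRCP and 1 each in DDIAS and RAB30. At chr7:11000001-13000000 there were 18, with 5 each in SCIN, an actin-severing protein, and THSD7A, and 1 in a gene known by the identifier ENSG00000226690. At the end of chromosome 6, chr6:169000001-170805979 had 18, with 2 each in WDR27 and ENSG00000285733. A region at chr21:7000001-9000000 had 23 peaks and no protein-coding gene, with a median of 21 reads.

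The long arm of chromosome 8 was dense over a long stretch. From 80000001 to 128000000, a span set after its density was seen, there were 357 peaks, or 7.45 per Mb (6.69 to 8.26), and 0 of 48 windows were empty, with 1 to 18 peaks in each. The rest of chromosome 8 had 1.78 per Mb (1.52 to 2.06). This stretch held all 20 dense windows of the chromosome and 4 of the 15 dense regions with most peaks. The region chr8:80000001-83000000 had 44 peaks, with 3 in ZNF704 and 1 each in FABP12 and SNX16, and most of the others in introns of genes that are not protein-coding. At chr8:114000001-116000000 there were 31, with 7 in TRPS1, a zinc finger repressor. At chr8:85000001-87000000 there were 21, with 3 in CNGB3, a cone photoreceptor channel, and 1 each in ATP6V0D2 and CNBD1. At chr8:120000001-122000000 there were 18, with 4 in COL14A1, a collagen, and 2 in MTBP, an MDM2-binding protein. The stretch had 0.98 replicate 1-only peaks per Mb (0.720 to 1.30) and 2.27 exonic peaks of replicate 2 per Mb. Those replicate 1-only peaks with 10 reads or fewer stood at 0.626 per Mb (0.422 to 0.893), against 0.348 over all windows, and those with more reads at 0.355 (0.207 to 0.568) against 0.586. In the set, 31.1% of the peaks of this stretch were at the genome-wide control rate.

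Chromosome 13 was raised to a lower level and over a longer stretch. From 30000001 to 114000000, also set after its density was seen, it held 304 peaks, or 3.63 per Mb (3.23 to 4.06), 10 of its 84 windows were dense and 2 were empty. Replicate 1-only peaks stood at 0.823 per Mb there (0.641 to 1.04). Those of 10 reads or fewer stood at 0.442 (0.311 to 0.609), and those of more reads at 0.382 (0.261 to 0.539).

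Other stretches held almost none. The longest run of empty windows was chr18:41000001-79000000, with 0 peaks in 38 windows, which allows a density of up to 0.0972 per Mb. The beginning of the same chromosome, described above, was among the densest. The other classes were low there as well. The empty stretch held 65 exonic peaks of replicate 2, or 1.71 per Mb against 4.63 over all autosomes. It had 5 replicate 1-only non-exonic peaks, or 0.132 per Mb (0.0428 to 0.307) against 0.935. The next longest runs were chr5:35000001-56000000, with 21 windows and 39 exonic peaks of replicate 2, and 15 windows each on chromosomes 1, 2, 5, 10 and 14.

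High and low stretches were also seen at a scale of 10 Mb. Among 277 blocks, the median was 1.02 peaks per Mb and the highest was 10.4, on chromosome 6. The intervals of 55 blocks lay above the density of all autosomes, those of 113 lay below, and 6 blocks had 0 peaks. Across these blocks, as a description, the densities of intronic and intergenic members had a Spearman correlation of 0.661, and those of members at and above the genome-wide control rate one of 0.710. The density of the set against that of exonic peaks of replicate 2 had 0.0483. All of these come from 1 library and share its depth.

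The replicate 1-only peaks were split by reads for comparison with the set. Across the 277 blocks, density of the set had a Spearman correlation of 0.538 with replicate 1-only peaks of 10 reads or fewer and of 0.224 with those of more reads, and without chromosomes 6 and 8 these were 0.517 and 0.222 over 245 blocks. The difference between these correlations was not tested, and both lists depend on the same genome and annotation. In the dense windows the replicate 1-only peaks of 10 reads or fewer stood at 0.755 per Mb (0.582 to 0.964), against 0.335 (0.314 to 0.358) elsewhere. For those of more than 10 reads the densities were 1.03 (0.822 to 1.27) and 0.572 (0.544 to 0.601).

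To relate the density to known cancer genes, the window holding the middle of each gene was taken for 20 genes that are often amplified in gastroesophageal adenocarcinoma. Of these, 5 lay in a dense window (25%, beside 3.11% of all windows), and 14 of 20 were above the mean where 32.3% of all windows were. The median over the 20 windows was 2 peaks, with 1 over all windows. The count depends on where windows begin, and was 2 in windows shifted by 500 kb and 3 in windows of 500 kb or of 2 Mb. The list was chosen with earlier results of these data known, so these counts are a description.

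VEGFA, the vascular endothelial growth factor, lay in a window of 14 peaks (7.65 to 23.5), and BCL2L1, an inhibitor of apoptosis, in one of 12 (6.20 to 21). CCND1, the cyclin that starts the passage from G1 to S, lay in one of 10 (4.80 to 18.4). KLF5, a transcription factor of gastrointestinal epithelium, had 9 (4.12 to 17.1) and MYC, a transcription factor of growth, 8 (3.45 to 15.8). None of these 5 genes had a member inside its own body. Around each, the surrounding windows were raised as well for VEGFA, CCND1, KLF5 and MYC, with 9.45, 4.77, 4.55 and 4.36 peaks per Mb over 11 windows, where the median over all windows was 1. Around BCL2L1 it was 2.25 per Mb. Replicate 1-only peaks over the same 11 windows reached 4.04 per Mb around CCND1 and 2.09 around VEGFA, but 1.18 around MYC and 0.727 around KLF5. Over all autosomes replicate 1-only peaks stood at 0.935 per Mb. The rises around CCND1 and VEGFA were thus seen in both lists, and the one around KLF5 in that of replicate 2.

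The other windows of the list held from 0 to 5 peaks. PRKCI, a kinase of cell polarity, had 5, CDK6, a cell cycle kinase, 4, and ERBB2 3. EGFR and MET, both receptor kinases, CCNE1, GATA4, MCL1 and AKT2 had 2 each. CD44, GATA6 and HNF4A had 1 each, and FGFR2 and MDM2 had 0. MCL1 had few peaks in its own window but 3.64 per Mb over the 11 windows around it.

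**Figure D4:**
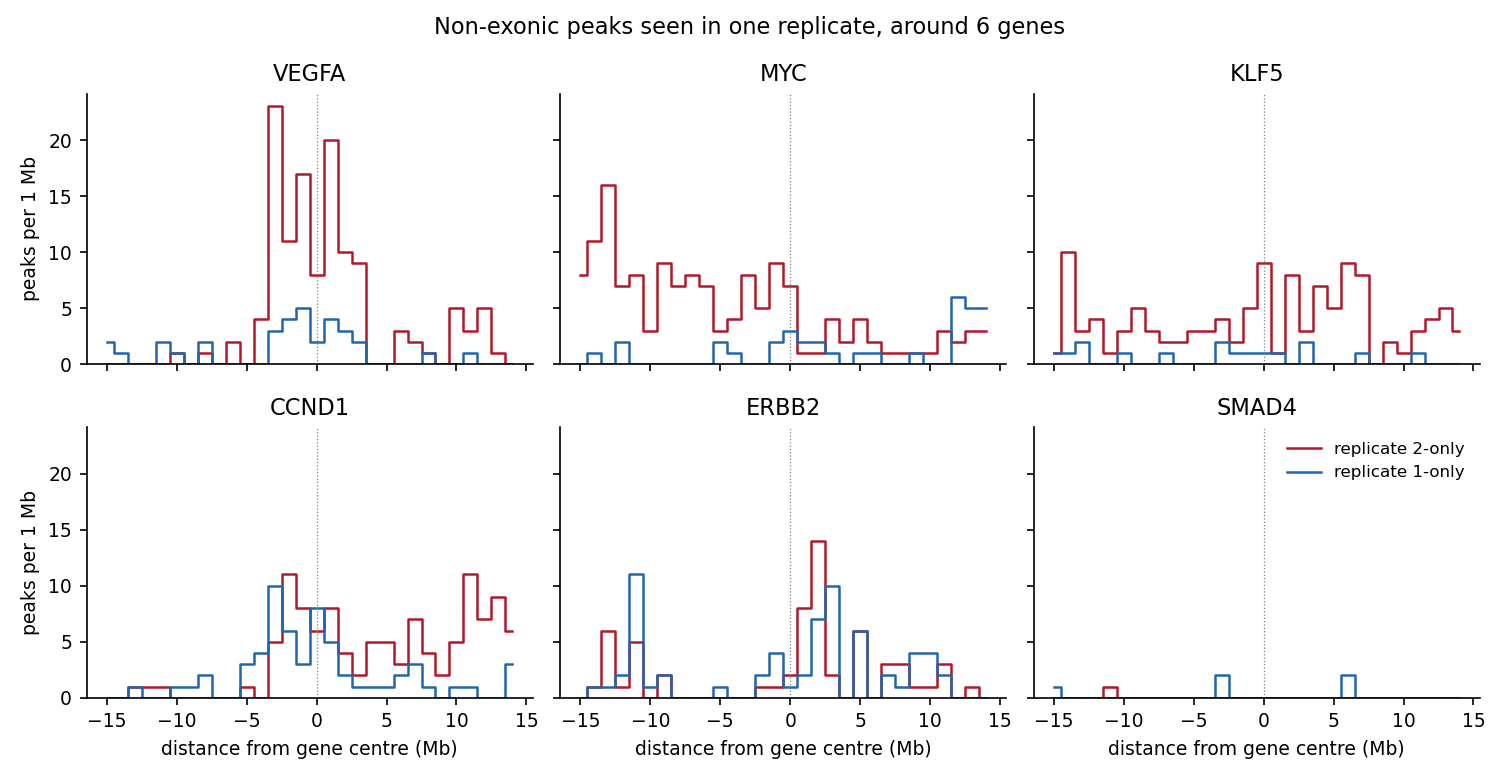
Number of non-exonic peaks in bins of 1 Mb (y axis) by distance from the centre of 6 genes in Mb (x axis), for peaks seen in replicate 2 alone (red) and in replicate 1 alone (blue). The red line is raised over a broad stretch around VEGFA and, up to the gene, around MYC, has a narrow rise about 2 Mb to the right of ERBB2, and is at 0 within 10 Mb of SMAD4. Around CCND1 and VEGFA both lines rise, the blue one around VEGFA to 5.

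ERBB2, a receptor tyrosine kinase and drug target in AEG, was not in a dense window. Its window, chr17:39000001-40000000, had 3 members (0.619 to 8.77), or 2 times the mean. The member with its summit at 39693168 lay in an intron of ERBB2, in sequence also within PGAP3, 93 bp from an exon, with 52 reads over a control rate of 21. The other members of the window lay in IKZF3, a lymphoid transcription factor, with 12 reads over a rate of 2.40 and 20 reads over 3.81. The ERBB2 window had the sixth highest median control rate (3.81) of the 549 windows with 3 or more members, whose median was 0.853.

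Among the 549 windows with 3 or more members, the highest median control rate at member summits lay 1.92 Mb from the end of ERBB2. The window chr17:41000001-42000000 held 19 peaks, the most of any window together with 1 on chromosome 6. The 18 with a control rate above 5 were singled out, and they lay between 41650264 and 41829035, a span of 179 kb. Those 18 had control rates from 6.11 to 30, with a median of 13.5, and 24 to 90 reads at the summit, with a median of 38. Their fold enrichment was low, from 2.07 to 4.43. The window and these 18 peaks were chosen on their control rates, so the high rates follow from that choice. The whole set had a median of 10 reads over a rate of 0.846. Of the 18 peaks 15 were intergenic, and the purine asymmetry was present in 1 of the window's 19 (5.26%, interval 0.935% to 24.6%).

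The same span was rich in peaks of other classes. It held 14 non-exonic peaks of replicate 2 that were shared with replicate 1, with a median control rate of 11.5, and 5 replicate 1-only peaks, with a median rate of 6.94 and a maximum of 20. High control rates were thus present in the lists of both replicates. The 7 protein-coding genes that overlap the span were EIF1, a translation initiation factor, GAST, the gastrin gene, HAP1, JUP, a junction protein, P3H4, FKBP10 and NT5C3B. GAST, FKBP10 and NT5C3B each held 1 member in an intron. The remaining member of the window, at 41877177 in an intron of ACLY, a citrate-cleaving enzyme, was below the limit of 5, with 27 reads over a rate of 1.68.

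The only other window with 3 or more members and a median control rate above 10 was chr21:8000001-9000000, with 13 peaks, a median of 44 reads and a median rate of 11. These 2 windows held 25 of the 53 members with 30 or more reads. The window of chromosome 21 had purine asymmetry in 10 of its 13 members, and at positions 1000 bp to the left and right the shares were 53.8% and 46.2%. Without both windows the share of members at the genome-wide rate was 26.1% in dense windows against 43.6% elsewhere.

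**Figure D5:**
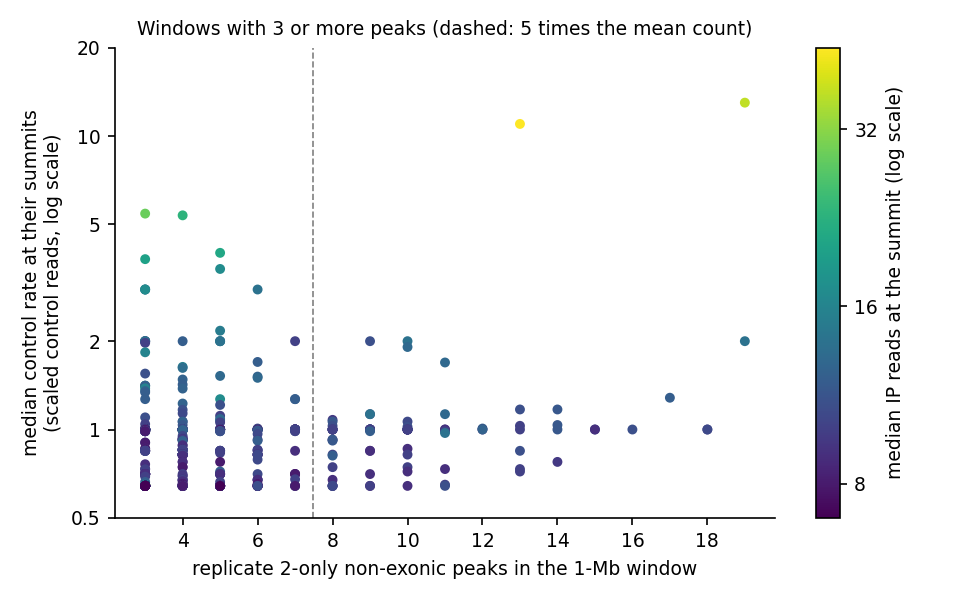
Median control rate at the summits, in scaled control reads on a log scale (y axis), by the number of replicate 2-only non-exonic peaks in each of 549 windows with 3 or more of them (x axis), coloured by the median number of IP reads. Most dense windows, to the right of the dashed line at 5 times the mean, have a rate near 1, and 2 windows stand above 10.

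Genes that are often lost in these tumours or lie at fragile sites were examined in the same way. Of 12 such genes, 1 lay in a dense window (8.33%, beside 3.11% of all windows), 7 windows were empty, where 44.1% of all windows were, and the median was 0 peaks, with 1 over all windows. SMAD4, a mediator of TGF-beta signalling, had 0 peaks in its own and the 10 surrounding windows, as it lies within the empty stretch of chromosome 18. CDKN2A, FHIT, WWOX, CSMD1 and PTPRD also had 0 in their own windows, and PDE4D and RUNX1 had 1 and ARID1A 3. MACROD2 went the other way, with 13 peaks (6.92 to 22.2) in its window. CSMD1 held 4 members elsewhere in its body, which is longer than a window.

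Among genes, those with most intronic members were long. DLG2, a scaffold protein of synapses on chromosome 11, held 19 over 2173 kb, and SUPT3H held 16 over 569 kb and MACROD2 16 over 2058 kb. DNM3, a dynamin on chromosome 1, held 11. The lncRNA genes ENSG00000254394 and ENSG00000253238 on chromosome 8 held 11 and 10. They were followed by ZFPM2, a cofactor of GATA factors, with 10, and by HMCN1, RIMS2, a presynaptic protein, and CSMD3 with 9 each. GPC5, a glypican, also had 9. The 2445 intronic members lay in genes of any type, among them 1195 protein-coding and 603 lncRNA genes. Of the protein-coding genes 896 held 1 member, and 40.9% had an exonic peak of replicate 2. The share over all 19111 protein-coding genes is not given here, so the 40.9% is not read further.

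Of the 5 members with the highest fold enrichment, 1 lay in a dense window. They lay in an intron of CACNA1C, a calcium channel gene, at chr12:2255808-2256036 (fold enrichment 22.4, 47 reads over a rate of 1), and in introns of genes that are not protein-coding at chr16:90116811-90117330 (15.1) and chr12:93083320-93083618 (14). The others lay in an intron of SYTL3, a vesicle protein, at chr6:158701185-158701430 (13.1) and at chr6:43711176-43712102 (12.8), which is the first of the printed sequences.

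Finally, the set was compared with the other non-exonic peaks in features that its choice did not use. GGAC or its reverse complement lay within 50 bp of the summit for 31.8% of the set, 64.3% of the shared non-exonic peaks of replicate 2 (difference −32.5 points, Fisher's exact test, adjusted p = 6.08e-123) and 54.9% of the replicate 1-only peaks. At 1000 bp from the summits these shares were 32.5%, 46.5% and 43.6%, so part of the difference was present away from the summits. Median GC content at the summits was 44.6% in the set, 56.4% in the shared peaks and 54.5% in the replicate 1-only peaks. The classes were not matched for GC content or for reads. Summits in gene bodies made up 58.8% of the set (57.3% to 60.3%), against 72.8% of the shared peaks (Fisher's exact test, adjusted p = 6.82e-26) and 73.8% of the replicate 1-only peaks. Introns made up 59.4% of the autosomal sequence outside exons, which lies within that interval. These p-values were adjusted over 6 comparisons by the Benjamini-Hochberg method, and they take the peaks of 1 library as independent. Comparisons with the replicate 1-only peaks, and of dense windows with elsewhere, count among the 6 but their tests are not reported here.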

How the data were processed

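meRIP-seq was performed by the authors on total RNA of OE-19 cells that, per the study's methods, was treated with DNase and fragmented before the antibody was added, while the labels describe cells fixed with UV light. The submitters' processing notes name fastp, HISAT2 and MACS2 and the build hg38, whereas the methods name TopHat2; no release is given. The authors deposited 1 list per IP sample that gives each peak's position, its fold enrichment over the caller's background (a ratio), its p-value and q-value as −log10, a score and the summit offset. The deposited score was not used. The lists hold no strand and no read counts. No file of the input samples was analysed here, and sex chromosomes and contigs were left out.

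For each summit, the IP reads and the background rate were solved from fold = (x + 1)/(rate + 1) and the Poisson p-value, where x is a whole number of reads times 1 step. The step was 0.830 in replicate 1 and 0.932 in replicate 2, and 99.7% and 99.8% of peaks had 1 solution within 0.001 of −log10 p. With the caller's default genome size the genome-wide rates of 0.491 and 0.642 correspond to about 10.8 M and 12.3 M control reads and 13 M and 13.2 M IP reads (M, 1000000 reads). Which library served as control is not given in the sources used here.

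Exons and genes were those of GENCODE version 44. Windows were fixed at 1 Mb, of 2887 windows 122 had under 50% sequenced bases and were left out, and list genes were placed by the middle of the gene. Poisson intervals are exact and intervals of shares are Wilson intervals. Members, lists, windows and tests were chosen with earlier results of these data known. The genes named are those of both lists (a few are not reported here), up to 3 per leading dense region, the 10 with most intronic members (the tie with GPC5 is given) and those of the 5 strongest members; genes of the cluster on chromosome 17 were named after its values were seen. A planned comparison of repeat-masked sequence was not made, since the reference used here carries no masking. The scripts were tested on simulated data. Python 3.11.15, numpy 2.4.6, pandas 2.3.3, scipy 1.17.1, statsmodels 0.14.6, pysam 0.24.0, samtools 1.23.1 and matplotlib 3.10.9 were used.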

Additional observations from a re-analysis of the deposited data

Results flagged for a closer look

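A signal also appeared outside the chromosomes analysed. Replicate 2 had 110 peaks on 29 unplaced or unlocalised contigs, which entered no comparison. Of these, 70 overlapped no peak of replicate 1. There is no control list to set them against, and their reads were not examined further.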

How the results depend on the processing

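No paired analysis was possible because each replicate number has 1 IP list and no input list, so no difference between groups was formed. Each of 9 results was recomputed under the alternatives, 137 values in all. A count or ratio was taken as unmoved within 1.5 times its main value and a correlation within 0.1. By that measure 102 values did not move and 35 did, and 0 correlations changed sign. The cause of a move was not tested except where fewer peaks or other windows enter by construction.

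The number of peaks (4157) fell to 1711 at a −log10 q of 5 or more, to 2421 at 5000 bp or more from every exon and to 1712 with intergenic summits alone. Leaving out replicate 1 gave 6030 (all non-exonic peaks of replicate 2). In place of leaving out replicate 2, the replicate 1-only peaks (2576) were used as the set. That list still uses replicate 2 for the overlap, so it is not a full omission. Ranges given below with a replicate left out run between these 2 settings. Dense windows (86) were 241 at 3 times the mean and 8 at 10 times, 251 in windows of 500 kb, 35 in windows of 2 Mb and 57 without chromosomes 6 and 8, which was chosen after seeing the data, and 82 to 111 with a replicate left out. The densest window (19) had 33 peaks at 2 Mb and 21 to 39 with a replicate left out. The ratio of variance to mean (3.51) was 5.33 at 2 Mb and 3.64 to 4.63 with a replicate left out.

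The ERBB2 window (3) had 0 at a −log10 q of 5 or more, at a fold enrichment of 5 or more, at 5000 bp from exons and for intergenic summits, and 5 to 6 with a replicate left out. The MYC window (8) had 4 at 5000 bp from exons, 0 for intergenic summits, 2 at 500 kb, and 3 to 13 with a replicate left out. Amplified genes in dense windows (5) were 3 at 5000 bp from exons, 2 in windows shifted by 500 kb, 3 at 500 kb, 3 at 2 Mb, 0 at 10 times the mean, and 2 to 4 with a replicate left out, so this count depends on where windows begin. The single dense window of a lost gene was 0 at a −log10 q of 5 or more, for intergenic summits, in shifted windows and at 10 times the mean, and 0 to 1 with a replicate left out. The rank correlation of window counts with replicate 1-only peaks (0.256) was 0.426 with all non-exonic peaks of replicate 2, and could not be formed without replicate 2.

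Counts per window are small: the interval of a window of 3 members (0.619 to 8.77) holds the mean of 1.5, and an empty window allows up to 3.69 peaks.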
